A study of Mus musculus with 4 samples.

Results

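The clustered histone genes are the histone genes that lie in tandem arrays and carry cluster names (Hist1, Hist2, Hist3 and Hist4) in the table analysed here. They were taken by name, as every row with a gene name that begins with one of these cluster names, and make up 69 of the 34315 features. The RNA came from HSCs (haematopoietic stem cells), from which all blood lineages derive, isolated from the bone marrow of C57BL/6 mice by sorting for SP-KSL-CD150+ and sequenced after polyA selection. The arm labelled as a Dnmt3a knockout was at hand as the authors' mean over its libraries, with the authors' fold change and adjusted p per feature, and the wild-type arm as 4 libraries with counts. The labels name no age, sex or Cre line for either arm, and do not say which part of Dnmt3a was removed.

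Clustered histone genes supply the nucleosome proteins H2A, H2B, H3 and H4 and the linker histone H1 while DNA is being copied, so their mRNAs accumulate in S phase. Most of them have no intron, and their mRNAs usually end just after a short conserved stem-loop instead of in a poly(A) tail. The stem-loop is bound by the protein encoded by Slbp, and the messages that a polyA selection can retain are those that were also polyadenylated further downstream. Some clustered genes are known to make such polyadenylated forms, and HSCs are known to divide rarely.

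Of the 69 rows, 55 belong to the Hist1 cluster on chromosome 13, 10 to Hist2 on chromosome 3, 3 to Hist3 on chromosome 11 and 1 to Hist4 on chromosome 6. By protein they are 5 rows for H1, 20 for H2A, 18 for H2B, 12 for H3 and 13 for H4. A further row joins the names Hist1h1e and Hist1h2be over a span of 38889 bases, so a linker histone and an H2B share its reads. Rows for 3 genes appear a second time under a suffixed name, and all 6 rows involved were at 0 in both arms. Coordinates of genes below are mm9, as the table gives them.

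The stem-loop is what sets these messages apart from other mRNAs, and it is shown here as found in GENCODE vM21 transcripts, written as DNA with the stem-loop in capitals and the bases on each side in lower case. The most abundant linker histone, H2A, H4 and H2B genes with the motif come first, then both genes called in the authors' deposited table not yet shown, and last a gene whose message ends close to the loop.
Hist1h1c: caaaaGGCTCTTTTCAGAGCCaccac
Hist3h2a: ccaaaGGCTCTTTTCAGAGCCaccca
Hist1h4i: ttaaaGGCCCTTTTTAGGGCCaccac
Hist3h2ba: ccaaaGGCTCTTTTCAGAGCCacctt
Hist1h2bg: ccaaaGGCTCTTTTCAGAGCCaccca
Hist1h1d: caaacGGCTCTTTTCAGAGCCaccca
Hist1h2bj: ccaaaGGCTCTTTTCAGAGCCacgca

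Letters matching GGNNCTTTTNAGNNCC on the transcript strand were present in 41 of the 66 member symbols that had a transcript, or 62.1%. In other protein-coding genes the same letters were found in 28 of 21834, or 0.128%. One form, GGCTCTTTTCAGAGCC, served 23 genes of the H1, H2A, H2B and H3 families. H4 genes used other forms, of which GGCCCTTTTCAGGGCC was found in 7 genes and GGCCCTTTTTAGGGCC in 2. Several transcripts without a match are annotated as coding sequence alone, so the absence of these letters says only that they are not in the annotated transcript.

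Library totals were between 40709659 and 47408552 counts. In a chi-square test of each feature's counts, the median per degree of freedom was 0.763 between wild-type libraries 1 and 2 and 0.682 between libraries 3 and 4, against at least 11.99 between libraries of different pairs. Libraries 1 and 2 were therefore averaged and counted as 1 sample, as were libraries 3 and 4, which leaves 2 wild-type values. The labels call all 4 libraries technical replicates of biological replicate 1, so any spread given here may be technical, and the series text speaks of duplicates. Dnmt3a itself averaged 8424 normalised counts in the arm labelled knockout, against 8229, 8569, 5400 and 5208 in wild-type libraries 1 to 4, so its level does not tell the arms apart. All 12 HSC markers were present in wild type, with Hoxb5 lowest at 476 normalised counts. Summed neutrophil markers stood at 30901 normalised counts in the arm labelled knockout, against 50676 in wild-type libraries 1 and 2 and 10255 in libraries 3 and 4. Summed mast cell and basophil markers stood at 96.2, against 888 and 1596, lymphoid markers at 76.8, against 262 and 231, and erythroid markers at 29086, against 49034 and 60396. Megakaryocyte markers went the other way, at 66308, against 41077 and 47547, and macrophage markers lay between the wild-type pairs. The part of these cell types in the histone values was not tested. In bulk RNA fewer cells of a type and less RNA per cell cannot be told apart.

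Clustered histone messages were scarce in this polyA-selected RNA. Together they took 50.6 CPM (reads scaled to a fixed library total) in the arm labelled knockout, against 63.5, 65.1, 101 and 101 CPM in wild-type libraries 1 to 4. Of the 69 rows, 16 reached a wild-type mean of 10 normalised counts, or 23.2%, where 51.5% of all features did. Only 5 reached 100, and 13 had no read in any wild-type library, of which 12 were also at 0 in the arm labelled knockout. A further 42 rows had between 1 and 50 wild-type reads in all 4 libraries together. With 0 reads in a library, a level of up to 0.0737 CPM is still possible, taking 3 counts as the floor and counting error only.

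The genes at 0 included Hist1h2aa and Hist1h2ba, an H2A and an H2B best known from testis, and also ordinary somatic genes such as Hist1h3b, Hist1h2ad and Hist1h4n. Near-identical copies limit what a 0 means for some of these genes. Among the 13 single-named rows with a coding transcript and no wild-type read, a median of 88.5% of the transcript's 50-base words occur in another transcript, against 53.2% in the 36 rows between 0 and 10 normalised counts and 28.9% in the 15 rows at or above 10. Those 13 rows include the 6 rows of the 3 genes listed a second time, all at or above that median. Counting these genes once would lower the median, and the values of the 13 rows run from 0% to 93.5%. The sources used here do not say how reads with several matches were counted.

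A few genes carried most of the signal. Hist1h1c, Hist2h2be, Hist3h2a, Hist1h2bc and Hist1h4i together held 92.0% of the histone counts in the arm labelled knockout and 86.1% in wild type. Per kb of exon, which allows genes of different length to be compared, the wild-type order was Hist1h1c at 712 normalised counts per kb, Hist1h2bc at 522, Hist1h4i at 407, Hist2h2be at 318 and Hist3h2a at 298. In libraries 1 and 2 and libraries 3 and 4, Hist1h1c had 404 and 1020 per kb, Hist1h2bc 390 and 655, Hist1h4i 392 and 422, Hist2h2be 290 and 347, and Hist3h2a 205 and 392. Within both pairs Hist1h1c lay above Hist1h2bc, by little in libraries 1 and 2, and Hist1h4i above Hist2h2be. For the other neighbours in that order the pairs disagreed in direction. Behind them came Hist3h2ba at 132, Hist1h2bg at 113 and Hist1h2ac at 27.0 per kb. The H2B gene Hist3h2ba, with 114 and 150 per kb, lay above the H2B gene Hist1h2bg, with 84.6 and 142, in both pairs, though their ranges overlap, and both lay above Hist1h2ac.

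**Figure D1:**
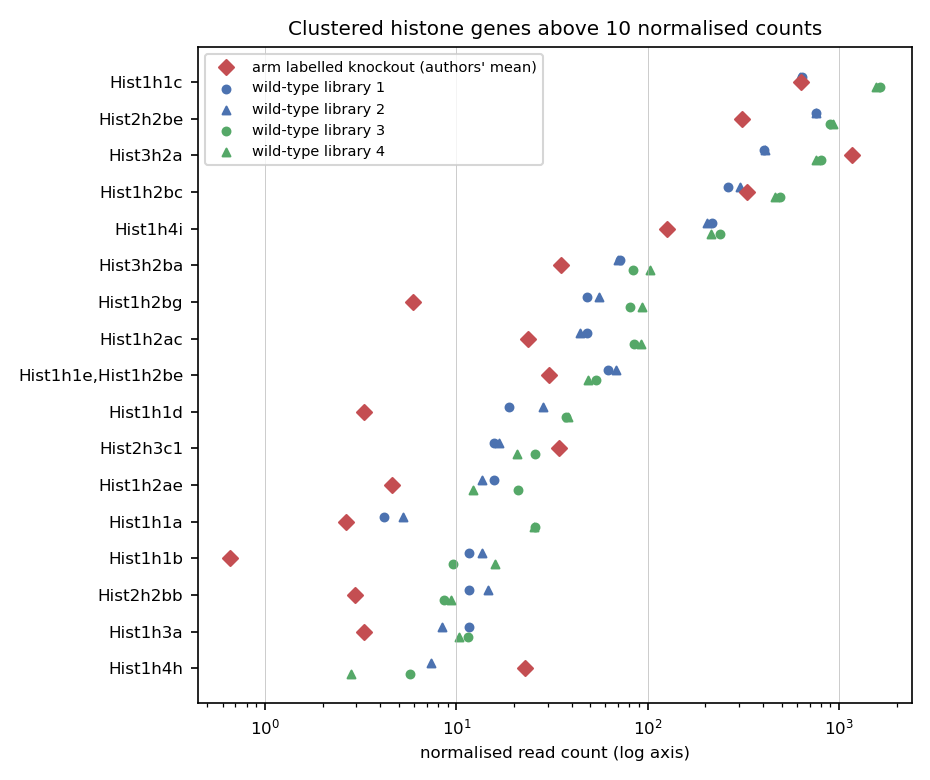
Normalised read counts (log axis) of the 17 clustered histone rows that reached 10 in either arm, ordered by wild-type mean. Red diamonds are the authors' mean of the arm labelled knockout, blue marks wild-type libraries 1 and 2, green marks libraries 3 and 4, and a library at 0, as library 1 for Hist1h4h, is not drawn. Blue and green marks pair up within each colour, and the diamonds lie left of all 4 wild-type marks for most rows, with Hist3h2a, Hist2h3c1 and Hist1h4h to the right.

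By family, H2B genes made the largest part of the summed level per kb, followed by H2A in the arm labelled knockout and by H4 or H1 in wild type. H2B held 31.6% of the summed level per kb in the arm labelled knockout, against 42.8% in wild-type libraries 1 and 2 and 38.8% in libraries 3 and 4. H2A held 30.2%, against 12.6% and 13.8%. H1 held 19.6%, against 18.8% and 30.6%, and rests on Hist1h1c: without it the wild-type share falls to 2.23%, where it is 25.95% with it. H4 held 16.2%, against 21.7% and 14.1%. H3 held 2.11%, against 3.44% and 2.38%. The order depends on the scale: by counts not divided by length, H2A held 43.4% in the arm labelled knockout, against 17.7% and 19.9%, H2B 24.8%, against 44.1% and 35.2%, and H1 22.8%, against 24.4% and 36.8%. On that scale Hist3h2a alone held 42.0% in the arm labelled knockout and 16.3% in wild type.

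Among genes with the stem-loop, those that stood out in level had an annotated transcript that runs on well past it. Of the 64 single-named rows with a coding transcript, 19 have the motif followed by more than 100 annotated bases, a limit set after the values were seen. Their median wild-type level was 9.25 normalised counts, 9 of the 19 reached 10, and the highest was 1111 in Hist1h1c. The 22 rows with 100 annotated bases or fewer after the loop had a median of 1.93, and 1 of them reached 10, which was Hist1h3a at 10.4. The annotated extension is 840 bases in Hist1h1c, 1643 in Hist3h2a, 330 in Hist1h4i, 169 in Hist3h2ba, 155 in Hist1h2bg, 2010 in Hist1h2ac and 4884 in Hist1h1d, against 23 in Hist1h2bj. A long extension did not go with a high level in every gene: Hist4h4, with 2445 bases, had 9.25 normalised counts. Hist2h4, with 1257, had 1.84, and Hist1h2bh, with 1214, had 1.92. The counted models of Hist2h4 and Hist1h2bh span 348 and 381 bases, too short to hold these extensions. Their levels therefore cannot show reads from the extension. The same holds for Hist1h3d and Hist1h3e, with models of 411 bases, and for Hist1h4c, Hist1h4d and Hist1h4j, with 312. None of these reached 10, and the 9 rows that did all have models longer than the coding sequence.

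The 23 rows without the motif had a median of 1.44 normalised counts, with 5 at or above 10. Hist2h2be, at 833, was the highest of them, followed by Hist1h2bc at 379. Length of the counted model moved with level too. The 30 rows whose model in the table is the coding sequence alone went up to 12.7 normalised counts, in Hist1h1b, and 1 of them reached 10, against 14 of the 34 rows with a longer model. A gene whose counted model is coding sequence alone cannot collect reads from its extension, and the part this plays in the levels was not tested.

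**Figure D2:**
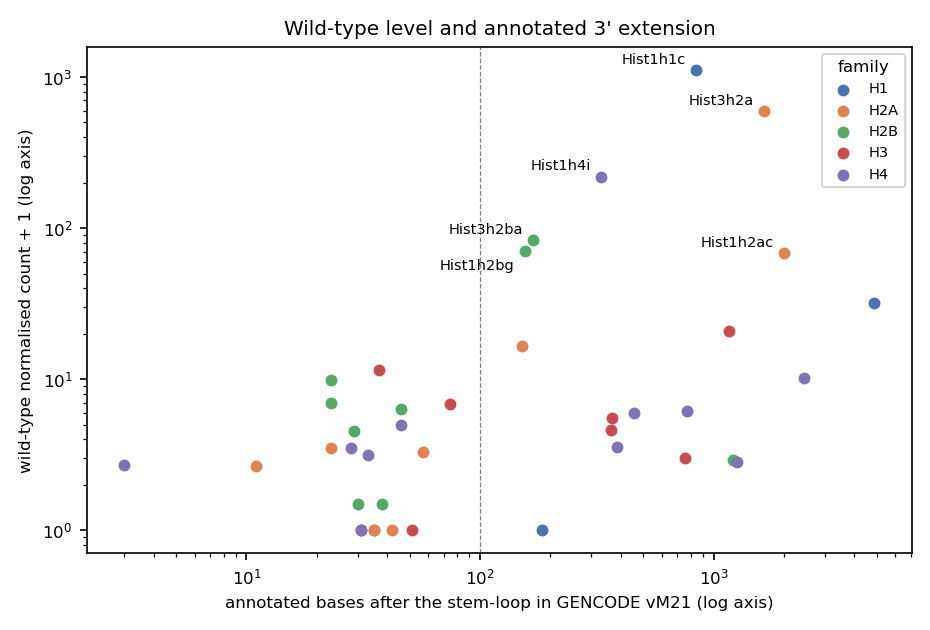
Wild-type normalised count plus 1 against the number of annotated bases after the stem-loop in GENCODE vM21, both on log axes, for the 41 single-named rows with the motif, coloured by family. The dashed line marks 100 bases. Every row with a higher level than Hist1h3a, at 10.4 normalised counts, lies to the right of the line, where 19 rows span 0 to 1111.

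The remaining results set the arm labelled knockout beside wild type, the comparison that bears on what loss of the DNA methyltransferase Dnmt3a does to these genes. With a single mean per feature for the arm labelled knockout, a gene is called here where the authors' deposited table gives an adjusted p under 0.05. Of 40 members with a fold change there, 2 were called lower, or 5%, where 3.7% of the 21778 features tested were called lower. None was called higher, where 3.15% of all features were. Both shares lie near those of the whole table. The other 29 members had no fold change in that table.

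The 2 called genes were an H2B and a linker histone. Hist1h2bg, at chr13:23663269-23663883 on the plus strand, averaged 5.93 normalised counts in the arm labelled knockout, against 48.4, 55.5, 81.1 and 93.0 in wild-type libraries 1 to 4. All 4 wild-type values lie far above the mean of the arm labelled knockout. It fell by 3.22 on the log2 scale (adjusted p 0.0155 in the authors' deposited table). Close to 49.7% of its 50-base words occur in other transcripts, so reads may be shared with other H2B genes.

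Hist1h1d, a linker histone gene at chr13:23646901-23649877 on the plus strand, averaged 3.30 normalised counts in the arm labelled knockout, against 18.9, 28.3, 37.2 and 38.5 in wild-type libraries 1 to 4. The wild-type libraries differ among themselves, and all lie clear of the mean of the arm labelled knockout. It fell by 2.85 on the log2 scale (adjusted p 0.0491 in the authors' deposited table), just inside the threshold. Neither call held at an adjusted p under 0.01.

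The other linker histones gave values in the same direction without a call. Hist1h1c, at chr13:23830676-23832236, averaged 630 normalised counts in the arm labelled knockout, against 637, 624, 1625 and 1558 in wild-type libraries 1 to 4. The mean of the arm labelled knockout is level with libraries 1 and 2, so the value of -0.82 on the log2 scale that the authors' deposited table lists (adjusted p 0.744) rests on libraries 3 and 4. Hist1h1a averaged 2.64 normalised counts in the arm labelled knockout, against 4.21, 5.23, 25.8 and 25.4 in the wild-type libraries, which likewise differ more among themselves than libraries 1 and 2 differ from the arm labelled knockout.

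Hist1h1b, another linker histone gene, averaged 0.659 normalised counts in the arm labelled knockout, against 11.6, 13.6, 9.54 and 15.96 in the wild-type libraries. That mean stands for 2 reads in all, set against 51 in wild type, and the ratio of wild type to the arm labelled knockout was 19.3 with an exact 95% interval of 5.06 to 163 from counting error alone. The authors' deposited table lists an adjusted p of 0.106 for it. Hist1h1t, the testis linker histone, had no read in wild type. The authors' deposited table gives fold changes for 4 of the 5 H1 rows, all below 0, and their median was -2.59 on the log2 scale.

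Among H2A genes the values went both ways. Hist3h2a, at chr11:58768187-58770176, averaged 1174 normalised counts in the arm labelled knockout, against 403, 411, 804 and 756 in wild-type libraries 1 to 4. By counts not divided by length, it was the most abundant clustered histone message in the arm labelled knockout and the third in wild type. By the wild-type mean per kb, at 298, it stood behind Hist1h1c, Hist1h2bc, Hist1h4i and Hist2h2be. The authors' deposited table lists it at 0.98 on the log2 scale (adjusted p 0.658). The mean of the arm labelled knockout was 2.88 times that of libraries 1 and 2 and 1.505 times that of libraries 3 and 4, while libraries 3 and 4 were themselves 1.92 times libraries 1 and 2.

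Hist1h2ac averaged 23.7 normalised counts in the arm labelled knockout, against 48.4, 44.0, 84.9 and 92.0 in the wild-type libraries. Hist1h2ae averaged 4.61, against 15.8, 13.6, 21.0 and 12.2. For both, all wild-type libraries lay above the mean of the arm labelled knockout, and the authors' deposited table lists adjusted p values of 0.416 and 0.441 for them. It gives fold changes for 8 H2A rows, of which 6 were below 0, and their median was -0.70.

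H2B, like H1, had no value above 0, with 10 of 10 values of the authors' deposited table below 0 and -1.44 as their median. Hist2h2be, at chr3:96025044-96027661, averaged 312 normalised counts in the arm labelled knockout, against 759, 757, 891 and 923 in the wild-type libraries. The wild-type libraries agreed closely and all lay more than 2-fold above, yet the authors' deposited table lists an adjusted p of 0.411 beside a log2 value of -1.41. Hist3h2ba averaged 35.3, against 71.5, 70.1, 83.9 and 102, and the authors' deposited table lists it at -1.18 on the log2 scale (adjusted p 0.556).

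Hist1h2bc, one of the few clustered histone genes whose span in the table, 8282 bases, is longer than its exons, at 726 bases, did not separate the arms. It averaged 330 normalised counts in the arm labelled knockout, against 264, 303, 490 and 460 in the wild-type libraries. The mean of the arm labelled knockout lay between the wild-type pairs, and the authors' deposited table lists it at -0.20 on the log2 scale. Of the other spliced rows, the joined row of Hist1h1e and Hist1h2be averaged 30.3 normalised counts, against 62.1, 68.0, 53.4 and 48.8, and Hist1h2bp had 2 wild-type reads in all. Hist2h2bb averaged 2.97, against 11.6, 14.7, 8.59 and 9.39, and its model overlaps a feature on the opposite strand. Hist1h2bj was down to 0.330 in the arm labelled knockout, which stands for 1 read, against 15.8, 8.37, 5.72 and 5.63, and the ratio of wild type to the arm labelled knockout was 26.4 with an exact 95% interval of 4.44 to 1073.

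H3 genes were near the limit of detection. Hist1h3a averaged 3.30 normalised counts in the arm labelled knockout, against 11.6, 8.37, 11.4 and 10.3 in the wild-type libraries, and the authors' deposited table lists it at -1.37 on the log2 scale. Hist2h3c1 pointed the other way, with 34.3 normalised counts in the arm labelled knockout, against 15.8, 16.7, 25.8 and 20.7, and the authors' deposited table lists it at 0.76 on the log2 scale (adjusted p 0.804). All of its 50-base words occur in another transcript, so its reads cannot be assigned to it alone. Of the 8 H3 rows with a fold change in the authors' deposited table, 5 were below 0, and their median was -1.37.

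H4 genes had values on both sides. Hist1h4i, at chr13:22132685-22133221, averaged 126 normalised counts in the arm labelled knockout, against 216, 204, 238 and 214 in the wild-type libraries, which lay close together and all above. The authors' deposited table lists it at -0.78 on the log2 scale (adjusted p 0.769). Hist1h4h averaged 22.7 normalised counts in the arm labelled knockout, against 0, 7.33, 5.72 and 2.82 in the wild-type libraries, and the authors' deposited table lists it at 2.15 on the log2 scale (adjusted p 0.158). It reached a mean of 10 over both arms through the arm labelled knockout alone. Its span overlaps the feature HAG_010303 on the opposite strand, whose reads cannot be told apart without strand. Hist1h4d averaged 1.98, against 7.36, 8.37, 2.86 and 1.88. Of the 9 H4 rows with a fold change in the authors' deposited table, 6 were below 0, and their median was -0.60.

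**Figure D3:**
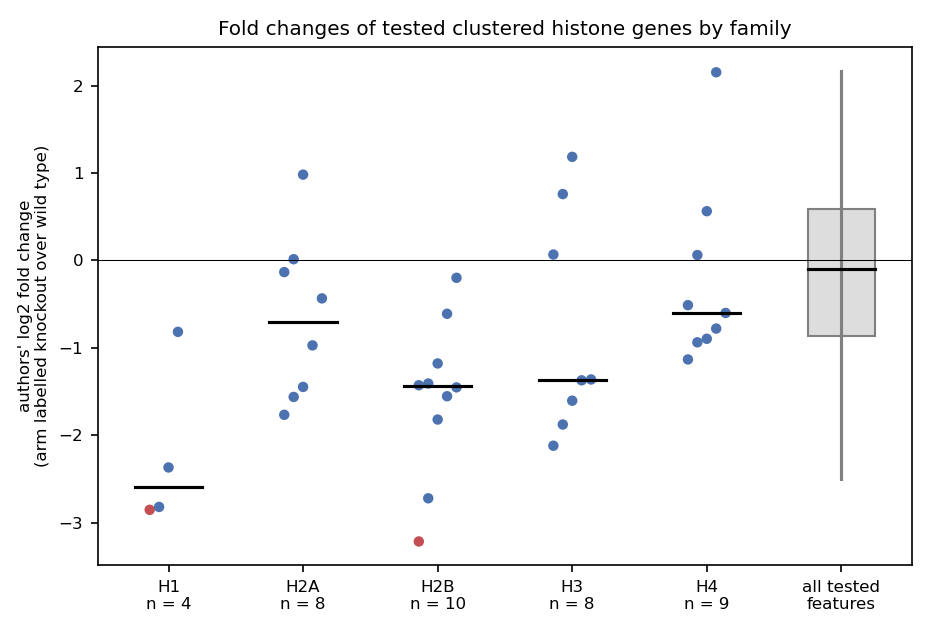
Log2 fold changes of the authors' deposited table (arm labelled knockout over wild type) for the 39 single-named clustered histone rows with a value, by family. Points are genes, red points have an adjusted p under 0.05, black bars are medians, and the box and line at the right give the middle 50% and the 5th to 95th percentiles of all tested features. All H1 and H2B points lie below 0, while H2A, H3 and H4 each have points on both sides.

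Taken over all members, low values in the arm labelled knockout were common and calls were not. The authors' mean of the arm labelled knockout lay below both wild-type pairs in 26 of 40 members with a fold change, or 65%, where 43.3% of all tested features did. It lay above both in 6 of 40, or 15%, where 38.2% of all tested features did, and those were Hist3h2a, Hist2h3c1, Hist2h3c2-ps, Hist1h4h, Hist1h3d and Hist1h4m. A log2 fold change of -1 or lower was found in 20 of 40 members, or 50%, against 21.8% of all tested features, and of 1 or higher in 2 of 40, against 15.6%. The 26 below both pairs include Hist1h1c, at 630.5 against 630.6 in libraries 1 and 2. They also include faint rows such as Hist1h2bj, with 1 read in the arm labelled knockout. The features set beside these shares were not matched to the members for level. The median log2 fold change was -1.05 over the 40, with 32 below 0. Over all tested features it was -0.10, and 54.1% were below 0. A minimum level changes which members are counted, and these medians are descriptions only. The 13 members with a mean of both arms of at least 10, a limit that lets in Hist1h4h and leaves out 4 members that are low in the arm labelled knockout (Hist1h1a, Hist1h1b, Hist2h2bb and Hist1h3a), had a median of -0.91. The 16 with a wild-type mean of at least 10, an alternative added after the data were seen, had a median of -1.39, where all tested features at that level had -0.11.

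Most members are faint, and faint features lean to the same side. Among features with a wild-type mean under 100 normalised counts, a split chosen after the values were seen, the 35 tested members had a median of -1.18, against -0.23 over all 8689 such features. The 5 members at or above 100 had a median of -0.78, against -0.04 over all such features. Scaling by library totals in place of size factors moves the median of all tested features by -0.32, and under it Hist3h2a, Hist1h4h and Hist2h3c1 still had log2 values above 0, at 0.66, 1.86 and 0.44. Of the 40 tested members Hist1h4k and Hist2h2ac, both close to 0, changed sign, which leaves 34 below 0, where 66.3% of all tested features are.

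The sum over the members depends on the scaling and on which abundant genes are in it. Clustered histone genes together reached 2795 normalised counts in the arm labelled knockout, against 2751 in wild-type libraries 1 and 2 and 4533 in libraries 3 and 4. That is 0.767 times the wild-type mean, where scaling by library totals gave 0.611 times. By library totals, as in the CPM values above, the arm labelled knockout lay below libraries 1 and 2 as well. With size factors and without Hist1h1c, the member with the highest wild-type count, the sum was 0.855 times the wild-type mean. Without Hist3h2a, an alternative added after the data were seen that leaves out the abundant member higher in the arm labelled knockout, the sums were 1621, against 2344 and 3753, or 0.532 times. The 64 members outside the 5 most abundant summed to 222, against 462 and 553, or 0.438 times the wild-type mean.

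The wild-type pairs differed from each other in these genes as well. Among the 16 members with a wild-type mean of at least 10, 14 were higher in libraries 3 and 4 than in libraries 1 and 2, with a median log2 difference of 0.45, where the median over all 17661 such features was 0.02. Libraries 3 and 4 were at least 2-fold over libraries 1 and 2 in 2 of the 16, or 12.5%, Hist1h1c and Hist1h1a, where 3.23% of all such features were. None was 2-fold under, where 9.71% were, so that 12.9% of all such features differed by 2-fold in one direction or the other. The direction of the median does not hold without the minimum level, where it is -0.14. The linker histones Hist1h1c and Hist1h1a thus varied between wild-type libraries by 2.52 and 5.41 times, which bears on any reading of their fold changes above.

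Clustered genes often start back to back. Promoters of both called genes, of Hist3h2a and of Hist1h4h are shown here from RefSeq, build GRCm38.p6, from before the start site, 5′ to 3′ on the gene's strand. A link between promoter letters and fold change was not tested. Capitals mark the letters TATAAA of the TATA box, the letters CCAAT of the box named for them, and the letters TTTGCAT, part of the octamer known to serve H2B genes, each searched on both strands. No motif overlapped another in the printed stretches. The first is at chr13:23571250-23571399 (plus strand), the second at chr13:23554882-23555031 (plus), the third at chr11:58954535-58954684 (plus) and the last at chr13:23530894-23531043 (plus).
Hist1h2bg: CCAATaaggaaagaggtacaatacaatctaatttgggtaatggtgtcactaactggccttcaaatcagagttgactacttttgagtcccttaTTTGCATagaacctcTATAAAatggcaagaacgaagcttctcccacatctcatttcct
Hist1h1d: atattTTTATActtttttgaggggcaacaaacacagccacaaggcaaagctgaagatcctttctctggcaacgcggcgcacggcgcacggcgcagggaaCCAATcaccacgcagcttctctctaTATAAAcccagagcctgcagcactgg
Hist3h2a: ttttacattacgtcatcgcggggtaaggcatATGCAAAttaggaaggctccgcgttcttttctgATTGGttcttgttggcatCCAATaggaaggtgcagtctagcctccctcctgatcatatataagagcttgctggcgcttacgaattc
Hist1h4h: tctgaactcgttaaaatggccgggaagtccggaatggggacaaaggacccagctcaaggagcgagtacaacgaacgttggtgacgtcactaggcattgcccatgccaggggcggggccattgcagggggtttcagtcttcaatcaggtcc

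Both called genes hold TATAAA and CCAAT in these stretches and Hist1h2bg also the octamer part, Hist3h2a holds CCAAT and the octamer part, and Hist1h4h none of them. Within 250 bases before the start, CCAAT occurred in 81.7% of the 60 promoters matched to 59 member symbols, against 33.8% of 32791 other promoters. TATAAA occurred in 48.3%, against 12.3%, and TTTGCAT in 25%, against 4.09%. The families differed in these counts: CCAAT was present in all 6 H1, all 16 H2A and all 16 H2B promoters, in 8 of 10 H3 and in 3 of 12 H4 promoters, and TTTGCAT in 7 of 16 H2A and 7 of 16 H2B promoters, in no H1 or H3 promoter and in 1 of 12 H4 promoters. Since H2A and H2B genes that start back to back lie 167 to 334 bases apart in the table, their windows can overlap. The same letters can then count for both genes, so these promoters are not all separate. A match is a description of letters and not a site in use.

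Divergent H2A and H2B genes numbered 14 pairs, with 167 to 334 bases between their starts in the table. In 10 pairs neither gene reached 10 normalised counts in wild type, and in 2 pairs both did. One was Hist1h2ae with Hist1h2bg, 179 bases apart and sharing most of the promoter stretch shown for Hist1h2bg, where both genes were lower in the arm labelled knockout than in every wild-type library. The other was Hist1h2ac with Hist1h2bc, 239 bases apart, where the authors' deposited table lists Hist1h2ac at -1.45 and Hist1h2bc at -0.20 on the log2 scale. In the last 2 pairs a silent or faint gene faced an abundant one: Hist2h2ac had 2.31 normalised counts in the arm labelled knockout, against 3.67 and 0.947 in the wild-type pairs, while its partner Hist2h2be was among the most abundant, and the pseudogene Hist3h2bb-ps had 0.330, against 0.523 and 2.37, beside Hist3h2a.

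Many of the histone genes outside the clusters had more counts in this polyA-selected RNA: 10 of 16 had more wild-type counts per kb than Hist1h1c, while 3 had no wild-type read. Clustered messages that end at the stem-loop are not retained by the selection. These counts therefore cannot rank genes inside and outside the clusters by their total mRNA. The linker histone gene H1f0 had 3829 normalised counts per kb in the arm labelled knockout, against 3637 and 5182 in the wild-type pairs, several times the level of Hist1h1c. H3f3a and H3f3b, which encode the replacement histone H3.3, were at 11191 and 25636 per kb in the arm labelled knockout. Wild-type libraries 1 and 2 had 8070 per kb of H3f3a and 12316 of H3f3b, and libraries 3 and 4 had 10617 and 20069. H2afz, which encodes H2A.Z, had 877 per kb, against 1666 and 1381, and H2afx, which encodes H2A.X, had 1836, against 3372 and 3356. Of 16 such genes, 11 had a mean of both arms of at least 10, none was called in either direction, and the median of their log2 values in the authors' deposited table was -0.20.

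Factors that process or activate histone mRNA had no called gene among 22, and the median of their log2 values in the authors' deposited table was -0.04. Single values went both ways, from -1.27 in Cpsf3 to 1.23 in Npat. Slbp averaged 3391 normalised counts in the arm labelled knockout, against 3913, 3988, 3509 and 3370 in the wild-type libraries, so the values overlap. Histone chaperones, which carry histones to DNA, had none called of 24 and a median of -0.29.

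DNA replication genes, which are used in the same phase of the cell cycle, had values below 0 in 45 of 46 cases in the authors' deposited table, with -1.63 as the median on the log2 scale. Of the 46, 4 were called lower and none higher, where 3.7% of all tested features were called lower. They were Tk1, Mcm10, Gins1 and E2f2. Mcm10, a replication initiation factor, averaged 245 normalised counts in the arm labelled knockout, against 2423, 2415, 1480 and 1504 in the wild-type libraries, and the authors' deposited table lists it at -2.99 on the log2 scale (adjusted p 0.0150). Gins1 averaged 114, against 1015, 1040, 672 and 644, where the authors' deposited table lists an adjusted p of 0.0212. E2f2 averaged 155, against 1123, 1220, 748 and 725. Tk1, thymidine kinase, averaged 309, against 3466, 3299, 2416 and 2277, and overlaps Afmid on the opposite strand.

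Other genes of that list did not separate so far. Mcm2, a helicase subunit, averaged 3115 normalised counts in the arm labelled knockout, against 14003, 14132, 10757 and 10437 in the wild-type libraries, where the authors' deposited table lists an adjusted p of 0.158. E2f1, a transcription factor of the G1 to S transition, averaged 1323, against 2747, 2603, 1655 and 1553. Pcna, the sliding clamp, averaged 9567, against 11001, 11048, 9686 and 9435, and overlapped wild type. The replication genes named here were higher in libraries 1 and 2 than in libraries 3 and 4. Most clustered histone genes with a wild-type mean of at least 10 went the other way.

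**Figure D4:**
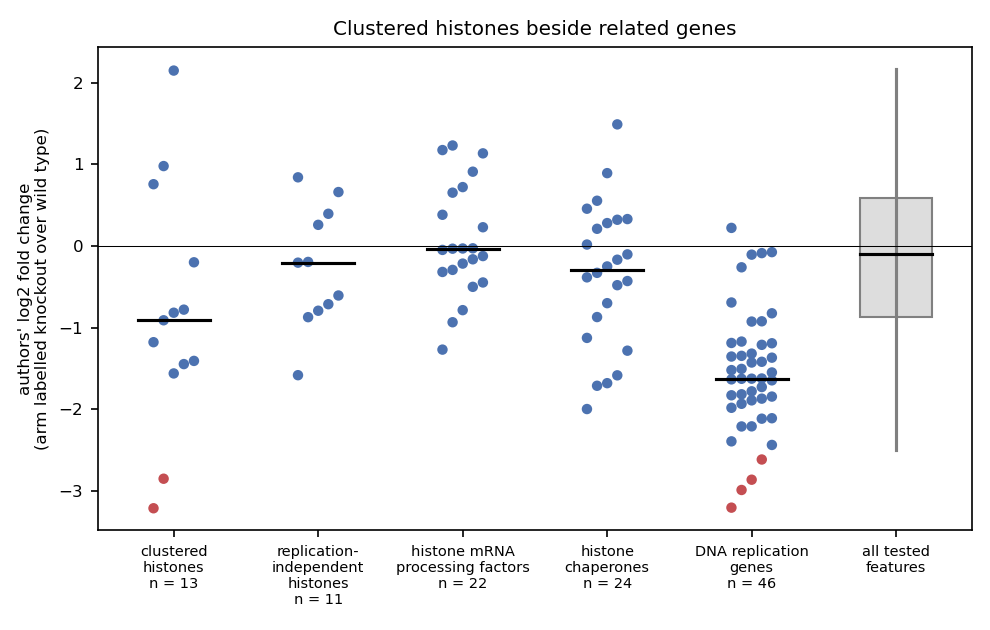
Log2 fold changes of the authors' deposited table (arm labelled knockout over wild type) for clustered histone genes and 4 lists of related genes, each with a mean of both arms of at least 10 normalised counts, a limit that the arms' own values set. Points are genes, red points have an adjusted p under 0.05, black bars are medians, and the box and line at the right give the middle 50% and the 5th to 95th percentiles of all tested features. The medians are -0.91 for clustered histones, -0.20 for replication-independent histones, -0.04 for processing factors, -0.29 for chaperones and -1.63 for DNA replication genes.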

How the data were processed

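RNA was polyA-selected and prepared with a TruSeq kit, per the labels, which as named does not mark strand. The authors deposited whole read counts per feature for 4 wild-type libraries, the mean count of the arm labelled knockout, a length-scaled signal, a log2 fold change and a p-value, read here as adjusted. The submitters' processing notes name mm9 and DESeq without version or role. The aligner, counter and gene models were not given in the sources used here. Of the table's 30 columns, 8 hold per-library values that match no sample here; these were left unused.

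Size factors from the median of ratios (0.951 to 1.065) scaled the wild-type counts, and the authors' mean was placed on that scale with a log2 offset of 0.399 (SD 0.00187 over 10804 features with at least 200 counts). The deposited log2 fold change is matched by that ratio once about 1.41 normalised counts are added to each mean, so it understates folds of low genes. Exon lengths came from the ratio of count to the deposited signal. Python 3.11.15, pandas 2.3.3, numpy 2.4.6 and scipy 1.17.1 were used. The test of agreement between libraries used features with at least 20 reads and was tested on simulated data. No test between arms was run. Floors take 3 counts, and intervals are exact Poisson intervals at 95%, covering counting error only. The alternatives cover scaling, filters on low counts, library pairs and each library left out.

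The members and lists were chosen with earlier results of these data known. Genes named are the 15 highest per kb in wild type, every called member, the largest changes among members with a mean of at least 50, spliced rows, called genes of each list (up to 4) and 10 genes always named. Hist1h4h, Hist2h3c1, Hist1h1t, Hist2h2ac, Hist3h2bb-ps, Hist1h4k, Hist4h4, Hist2h4, Hist1h2bh, the genes above both wild-type pairs and those at 0 were named after their values were seen. So were Hist1h3e, Hist1h4c, Hist1h4j, Cpsf3, Npat, Asf1b and Ubn2. Stem-loops were sought in GENCODE vM21 transcripts by gene symbol (66 of 67 symbols matched), and promoters in RefSeq, GRCm38.p6. No coordinates were converted between builds.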

Additional observations from a re-analysis of the deposited data

How the results depend on the processing

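The median log2 fold change of clustered histone genes with a mean of both arms of at least 10 was -0.91. It was -1.35 with wild-type libraries 3 and 4 alone and -1.39 with the minimum set on wild type alone, added after the data were seen. Since either minimum is set by values of the comparison, its sign under them is no sign of stability. With the limit on the authors' adjusted p set to 0.01, 0 members were called lower, where 2 were at 0.05. Lowering the minimum level from 10 to 3 normalised counts raises the members present in wild type from 16 to 31, and a minimum of 100 leaves 5. The median log2 difference between wild-type libraries 3 and 4 and libraries 1 and 2 was 0.45. It was 0.75 with a minimum of 100 and -0.14, the opposite sign, without a minimum, and ranged from 0.32 to 0.58 with each library left out; the cause was not tested. Of all values recomputed, 103 stayed within the limit set for them, 25 moved further and 1 changed sign. For most values that limit was the spread between the wild-type pairs. Runs on a single pair or with a library left out reuse the libraries that set this limit, so staying within it is no sign of stability. The summed fold of 0.767 was scored as within its limit although libraries 1 and 2 alone gave 1.016. Counts of members were allowed a fixed ratio, and the difference between the pairs the spread with each library left out. Depth limits the faint members: most have under 50 reads in 4 libraries. No paired analysis was possible because samples with labels were at hand for wild type alone, and table columns that match no sample were not used.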
